A study of Mus musculus with 18 samples.

Results

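The data described here are the liver arrays taken at 12.5 days post conception (dpc) against those taken at 11.5 dpc, 2 arrays at each stage and 4 of the 18 arrays of a series on mouse liver development. The 4 arrays were chosen by the stage in their source names, and no measured value entered the choice. Every animal was of the outbred CD-1 stock, untreated and of unaltered genotype as far as the labels tell. Livers were dissected from whole embryos, with the vena cava behind the liver and other attached tissue removed, and each sample pooled at least 5 embryos. The arrays of a stage are called biological replicates with no further detail, so the spread between them may be technical. Every p-value rests on the spread between replicates pooled over all 14 liver arrays of the series, from 10.5 dpc embryos to adult females, and not on these 4 alone. The age entry of these 4 samples reads 10.5 dpc, which goes against the source name, the title and the description of each, and it was not used. The 2 arrays at 13.5 dpc, from the same stock and dissection, show where a difference still stood a day later.

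The embryonic liver at this age houses the main site of red cell production. Blood precursors settle among hepatoblasts, the epithelial progenitors of hepatocytes and bile duct cells, and the enucleating definitive red cells made there take over from the primitive red cells of the yolk sac, which carry embryonic globins. Hepatoblasts begin to make plasma proteins early and gain metabolic enzymes later. Stellate cells, mesothelium and endothelium form the stroma, and the heart lies against the young liver across the septum transversum.

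The tissue labels were set against defining markers of cell types. The stage labels were not checked in this way. Alb (albumin) read 6433 and 6058 intensity units on the 11.5 dpc arrays, and 8524 and 8035 on those of 12.5 dpc. The red cell gene Klf1 read between 1358 and 2710 and the macrophage receptor gene Csf1r between 1140 and 1559 over the 4 arrays. Pdgfra of the mesenchyme read between 327 and 513, and the endothelial Pecam1 between 58.8 and 81.9. All of these are above the floor of 24.8 units, the 20th percentile of all values, that was set before log2 values were taken. Alb, Klf1, Csf1r and Pdgfra were also well above the median of all values, 77.95, at both stages, while Pecam1 lay around it. A reading above the floor does not by itself show a cell type, since the heart genes Myh6 and Myl7 also passed it at 11.5 dpc. The heart marker Tnnt2 read 17.9 and 18.8 at 11.5 dpc, both under that floor, and 387 and 1303 at 12.5 dpc. Heart transcripts were thus on the 12.5 dpc arrays of tissue labelled as liver, at unequal levels, and they are given apart from the rest. The replicate arrays correlated across genes at r = 0.978 at 11.5 dpc and 0.975 at 12.5 dpc on the log2 scale, and arrays of different stages at 0.958 to 0.968. The ratio of the 3' to the 5' control probe sets of Gapdh lay between 0.744 and 0.862 on the 4 arrays.

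Between the stages, genes of heme synthesis and of the red cell membrane rose, several secreted liver proteins rose, most stromal genes did not pass the test, and heart muscle genes rose with a gap between the 12.5 dpc arrays. A gene is said to have risen or fallen where limma's adjusted p was below 0.05 and the stages differed by 1 log2 or more. Of 14125 genes tested, 378 rose, which is 2.68%, and 39 fell, which is 0.276%. The falls numbered 17 without 11.5 dpc replicate 2, 26 without 12.5 dpc replicate 1 and 14 with the heart list median of each array as a covariate, and the rises 262, 259 and 164. Of the genes that rose, 31 belonged to the erythroid lists, 17 to the hepatocyte lists, 16 to the heart and skeletal muscle lists and 299 to no list. The median difference over all genes was 0.01 log2. In 245 of the 378 genes the nearest arrays of the stages were at least 1 log2 apart. The arrays of the stages did not overlap for any of the 417 genes called, and for 6956 of all genes tested. In such bulk RNA, more cells of a type and more RNA per cell cannot be told apart.

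**Figure D1:**
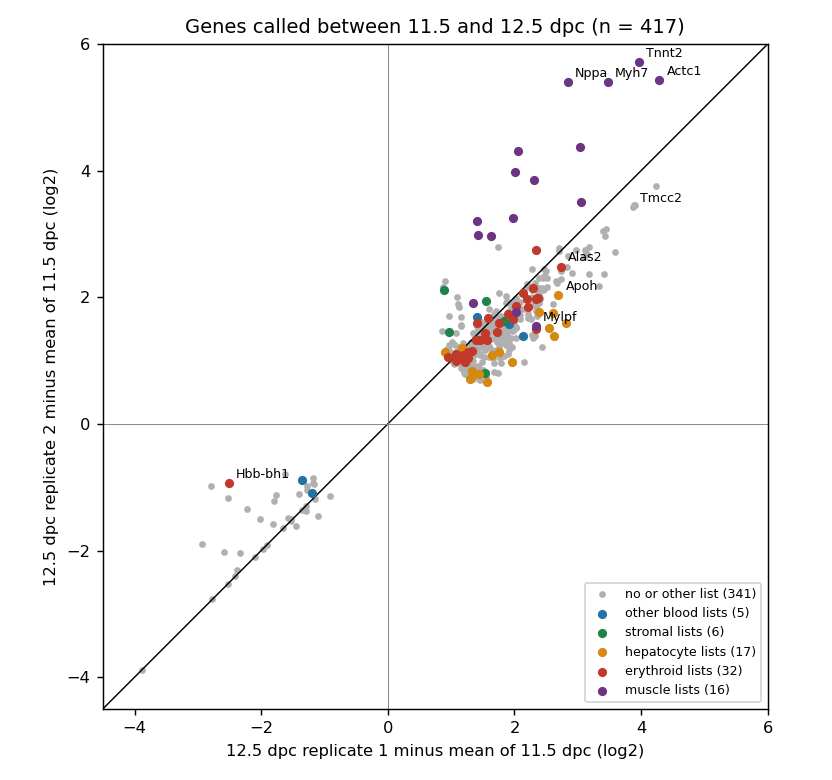
Each point is 1 of the 417 genes called between the stages. The horizontal axis gives 12.5 dpc replicate 1 and the vertical axis replicate 2, both as log2 difference from the mean of the 11.5 dpc arrays, with the line of equal values; colours mark the compartment of the gene's list. Erythroid genes lie near the line, with 26 of the 31 that rose below it. Of the hepatocyte genes that rose, 15 of 17 lie below it. Most muscle genes lie above it, with Tnnt2 at 3.96 on replicate 1 and 5.71 on replicate 2.

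Many erythroid genes rose. Of 91 tested members of the erythroid lists, 31 rose, 1 fell and 59 did not pass the test, with a median difference of 0.63 log2. Heme synthesis had 7 of 13 members higher and none lower, at a median of 1.09. The membrane and skeleton of the red cell had 11 of 19 higher and none lower, at a median of 1.14. Enzymes and other genes of late red cell maturation had 10 of 23 higher, at a median of 0.68. Erythroid regulators and receptors had a median of 0.42 log2, with 13 of 20 at an unadjusted p under 0.05 by limma, beside 2294 of all 14125 genes. Genes of iron uptake and storage had a median of 0.36, with 4 of 11 at that level. By the rule for a rise, 1 of the 20 and 1 of the 11 rose, beside 2.68% of all genes. These counts moved with single arrays: without 11.5 dpc replicate 2 the erythroid lists had 20 genes higher, heme synthesis 3 and maturation 6, and without 12.5 dpc replicate 1 they had 22, 4 and 6. With the heart list median of each array as a covariate 9 erythroid genes were higher, with 2 in heme synthesis, 2 in the membrane list and 4 in the maturation list. The median differences in that fit were 0.80 log2 over the erythroid lists, 1.03 for heme synthesis, 1.20 for the membrane and 0.78 for maturation. The SE over all genes was 1.72 times as large at the median as in the main fit.

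Heme synthesis was led by Alas2, the first enzyme of the pathway in red cells. It read 764 and 396 at 11.5 dpc and 3646 and 3066 at 12.5 dpc. Both later arrays lie above both earlier ones, and replicate 1 is the higher array at each stage. The difference was 2.60 ± 0.27 log2 (SE; adjusted p = 0.000343), a 6.08-fold rise. Fech, which inserts iron into the porphyrin ring, read 1684 and 1344 and then 4469 and 3793, a rise of 1.45 ± 0.18 log2 (adjusted p = 0.00101). Fam210b, a mitochondrial protein needed for heme production, read 277 and 239 and then 953 and 852, a rise of 1.81 ± 0.14 log2. The other genes of the list that rose were Uros, Urod and Ppox, enzymes of the middle of the pathway, and Abcb10, a mitochondrial transporter, by 1.09 to 1.36 log2. Alad, the second enzyme, differed by 0.96 ± 0.24 log2 (adjusted p = 0.0457), and Cpox by 0.37 ± 0.11 (adjusted p = 0.0866). Slc25a37 (mitoferrin), which carries iron into the mitochondrion, read 1630 and 979 and then 5115 and 4599, and rose by 1.94 ± 0.21 log2 (adjusted p = 0.000408).

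The membrane genes moved over a similar range. Slc4a1, the band 3 anion exchanger, read 1326 and 827 at 11.5 dpc and 4814 and 4135 at 12.5 dpc. Its difference of 2.09 ± 0.25 log2 (adjusted p = 0.000801) is a 4.26-fold rise with a wide gap between the stages. The other probe sets of Slc4a1 gave 2.14 and 1.14, the latter with replicate 1 of 12.5 dpc near the 11.5 dpc level. Dmtn (dematin, an actin bundler of the membrane skeleton) read 223 and 134 and then 848 and 763, a rise of 2.22 ± 0.25 log2. Another probe set of Dmtn, bright enough to be tested, gave 0.34. Tmod1, which caps actin filaments, read 64.2 and 34.5 and then 239 and 313, a rise of 2.54 ± 0.28 log2. In Tmod1 replicate 2 was the higher array at 12.5 dpc and the lower at 11.5 dpc. Epb42 (protein 4.2), Sptb (spectrin), Ank1 (ankyrin), Gypc (glycophorin C), Slc2a1 (a glucose transporter) and the blood group genes Rhd, Kel and Icam4 rose as well. Among the maturation genes, Trim10 read 496 and 302 and then 1703 and 1624, a rise of 2.10 ± 0.18 log2 (adjusted p = 0.000161). Xpo7, a nuclear exporter, read 340 and 426 and then 1930 and 1492, a rise of 2.16 ± 0.22 log2. Tspo2, a membrane protein of red cell precursors, read 123 and 36.2 and then 344 and 265, with a difference of 2.18 ± 0.42 log2 (adjusted p = 0.0115). Without replicate 1 of 12.5 dpc it was no longer called (1.99, adjusted p = 0.111). Of the 13 called erythroid genes that the naming rule picked, 10 remained called whichever of the 4 arrays was left out.

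The regulators that direct this programme were already high at 11.5 dpc. Gata1, the master transcription factor of red cells, read 1015 and 961 and then 1377 and 1337, a difference of 0.46 ± 0.11 log2 (adjusted p = 0.0418) that falls short of 1 log2. Klf1 read 1803 and 1358 and then 2710 and 2585 (0.76 ± 0.24, adjusted p = 0.128). Epor, the erythropoietin receptor, read 718 and 513 and then 845 and 886 (0.51 ± 0.19, adjusted p = 0.207). The stages do not overlap in any of these genes, and each difference is under 1 log2. Nfe2, a transcription factor of red cells and platelets, was the single regulator to rise, from 441 and 386 to 1197 and 1119 (1.49 ± 0.12 log2, adjusted p = 0.000114). Tal1, a partner of Gata1, read 776 and 667 and then 1509 and 1369, a 1.999-fold difference (adjusted p = 0.000768) that lay just under the threshold of 1 log2. Kit, the receptor of early progenitors, read 308 and 270 and then 195 and 184 (-0.61 ± 0.18, adjusted p = 0.0919).

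Promoter sequence of 3 of the rising genes is printed because GATA factors bind short sites of the letters AGATAA or TGATAA, which are in capitals where they occur on either strand. Each run is the 250 bases before the gene's start in RefSeq (GRCm38.p6), 5' to 3' on the gene's strand, and lies upstream of the annotated gene. Alas2 lies on the forward strand at chrX:150547167-150547416, Epb42 on the reverse strand at chr2:121036878-121037127 and Rhd on the forward strand at chr4:134864286-134864535. They are the genes with the largest rise in the erythroid lists among those with 1 listed start and such a match.
Alas2: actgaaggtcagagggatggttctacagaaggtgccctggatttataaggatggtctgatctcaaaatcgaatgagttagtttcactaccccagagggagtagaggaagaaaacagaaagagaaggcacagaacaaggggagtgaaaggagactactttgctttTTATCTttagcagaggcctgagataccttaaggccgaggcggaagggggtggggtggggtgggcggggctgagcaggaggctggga
Epb42: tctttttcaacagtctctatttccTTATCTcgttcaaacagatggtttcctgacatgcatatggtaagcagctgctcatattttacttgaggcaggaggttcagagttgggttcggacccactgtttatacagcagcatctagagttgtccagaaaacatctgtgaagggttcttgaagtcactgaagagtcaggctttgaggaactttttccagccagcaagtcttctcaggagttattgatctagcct
Rhd: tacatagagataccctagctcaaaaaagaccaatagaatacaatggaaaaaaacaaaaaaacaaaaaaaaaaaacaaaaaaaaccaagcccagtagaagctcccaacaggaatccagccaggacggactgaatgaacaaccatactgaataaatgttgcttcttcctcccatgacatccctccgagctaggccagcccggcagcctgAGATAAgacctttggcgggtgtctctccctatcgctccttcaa
The match begins 86 bases before the start in Alas2, 226 in Epb42 and 43 in Rhd. Of the tested genes, 11332 matched a RefSeq promoter by symbol, and 1453 of these, 12.8%, held such a site on either strand in any of their listed windows. Among the erythroid lists 68 of 91 genes matched, and 26 of the 68, 38.2%, held it. Of the 31 erythroid genes that rose, 20 matched and 8 held it. A match is a description of these letters and not evidence of binding.

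The globins went in different directions. Hbb-bh1, an embryonic beta-like globin of primitive red cells, read 3898 and 3946 at 11.5 dpc and 686 and 2043 at 12.5 dpc. Both later arrays lie lower, and replicate 1 lies well under replicate 2. Hbb-bh1 fell by 1.73 log2 (SE 0.37, adjusted p = 0.0209), and its other probe sets gave -1.52 and -0.71. This fall was not called without replicate 1 of 12.5 dpc (-0.94, adjusted p = 0.0219), nor without either 11.5 dpc array (adjusted p = 0.0949 and 0.13). Hba-x, the embryonic alpha-like globin, read 6797 and 6577 and then 3557 and 6680, so that replicate 2 at 12.5 dpc was at its 11.5 dpc level (-0.46 ± 0.25, adjusted p = 0.425). The heart transcripts were highest on the same array, and their part in the globin values was not tested. By 13.5 dpc Hba-x read 2468 and 2290 and had fallen against 11.5 dpc (-1.49, adjusted p = 0.00328). Hbb-y, the epsilon-like embryonic globin, read 3676 and 3709 and then 3739 and 4173 (0.10 ± 0.14). The list of adult-type globins had 2 tested members, both with differences above 0, at a median of 1.59 log2. Both were at an unadjusted p under 0.05 by limma, beside 2294 of all 14125 genes. By the rule for a rise 1 of them rose, beside 2.68% of all genes. That gene, Hbb-b2, read 725 and 415 and then 2812 and 2185 (2.18 ± 0.35, adjusted p = 0.0041), but its other probe set went the other way by -2.60 log2. With the probe sets averaged the direction of Hbb-b2 turned (-0.21, adjusted p = 0.691), and without 11.5 dpc replicate 2 or 12.5 dpc replicate 1 its adjusted p was 0.0507 and 0.051. Beta globin genes share much sequence, and probe sets can read more than 1 of them.

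The erythroid rise was still there a day later. All 31 erythroid genes that rose by 12.5 dpc were also called higher at 13.5 against 11.5 dpc, a comparison in which 589 of all genes tested, 4.17%, were higher and which shares the 11.5 dpc arrays. Over the 91 members, 41 were higher and 2 lower at 13.5 dpc, at a median of 0.86 log2. The 11.5 dpc replicates themselves differed, with a median of -0.26 log2 for replicate 2 minus replicate 1 over the 91 members, and -0.12 at 12.5 dpc. The nearest arrays were at least 1 log2 apart in 20 of the 31.

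**Figure D2:**
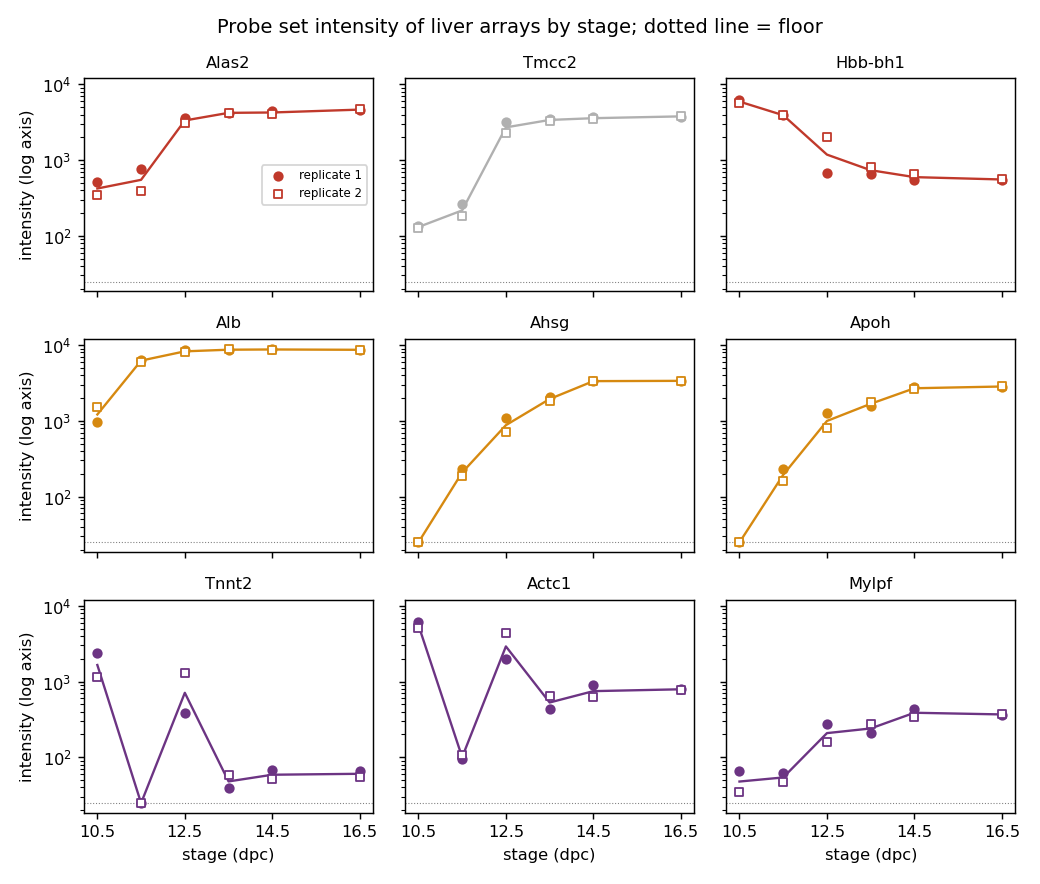
Intensity (log axis) on the 12 embryonic liver arrays by stage in dpc for 9 genes, with replicate 1 filled, replicate 2 open and a line through the mean log2 value; the dotted line is the floor of 24.8. Alas2 and Tmcc2 step up between 11.5 and 12.5 dpc and then stay level, Ahsg and Apoh climb on, Tnnt2 is high at 10.5 dpc, at the floor at 11.5 dpc and high again at 12.5 dpc, and Mylpf stays up after 12.5 dpc.

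Genes of dividing cells moved less than the erythroid genes. Of 26 DNA replication genes limma called none in either direction (3 at an unadjusted p under 0.05), and 25 of the differences were above 0, with a median of 0.16 log2. Of 25 mitosis genes 12 were at an unadjusted p under 0.05 by limma, beside 2294 of all 14125. Their median was 0.19 log2, and 20 of the differences were above 0. By the rule for a rise 1 of the 25 rose, beside 2.68% of all genes. That gene, Mki67, marks cycling cells and read 1383 and 1083 and then 2846 and 2714 (1.18 ± 0.15 log2, adjusted p = 0.000879). In a list of cell cycle genes tied to red cell maturation, 3 of 15 rose. E2f2, which drives entry into DNA synthesis, read 254 and 162 and then 1322 and 1384, a rise of 2.73 ± 0.30 log2 (adjusted p = 0.000443), and its other probe set gave 2.75. Rb1, the retinoblastoma repressor, read 395 and 355 and then 1023 and 865 (1.33 ± 0.14), though averaging its probe sets gave 0.67 (adjusted p = 0.057). Cdkn1a (p21), a cyclin kinase inhibitor, read 66.4 and 52.8 and then 113 and 134 (1.05 ± 0.24, adjusted p = 0.0273). Its call was lost on leaving out any 1 of the 4 arrays: 1.22 without 11.5 dpc replicate 1 (adjusted p = 0.054), 0.89 without 11.5 dpc replicate 2, 1.17 without 12.5 dpc replicate 1 (adjusted p = 0.0921) and 0.93 without 12.5 dpc replicate 2.

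Hepatocyte genes rose in part, and those that did were mostly secreted proteins and enzymes. Of 144 tested members of the product and enzyme lists, 17 rose and none fell, at a median of 0.38 log2, against the 2.68% of all genes that rose. Coagulation, complement and serpin genes had 6 of 34 higher, apolipoproteins and lipid carriers 3 of 17, glucose and glycogen genes 3 of 13, plasma carriers 2 of 22, cytochrome P450 and conjugation enzymes 2 of 23 and the urea cycle with amino acid breakdown 1 of 22. By limma none of 13 bile acid and organic anion transporters was called, none of 20 hepatocyte transcription factors (median 0.04 log2) and none of 19 hepatoblast and oncofetal genes (median -0.05). At an unadjusted p under 0.05 these lists held 3, 2 and 2 genes, beside 2294 of all 14125.

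Among the secreted proteins, Ahsg (fetuin A, a carrier of calcium phosphate in plasma) read 233 and 186 at 11.5 dpc, then 1083 and 710 a day later. The stages lie well apart, and replicate 1 is the higher array at both. Ahsg rose by 2.08 ± 0.19 log2 (adjusted p = 0.000184), 4.22-fold. Apoh, a phospholipid-binding plasma glycoprotein, read 234 and 161 and then 1252 and 794, a rise of 2.36 ± 0.26 log2 (adjusted p = 0.000443). F13b, the carrier subunit of coagulation factor XIII, read 11.7 and 10.6, both at the floor, and then 152 and 83.5, at least 4.54-fold higher (adjusted p = 0.000679). Apoc4, a lipoprotein component, read 3.23 and -2.68, also at the floor, and then 175 and 75.1, at least 4.62-fold higher (adjusted p = 0.00681). A spot at the floor adds no spread to the fit, so the p-values of such genes are too small. The terminal complement gene C8b read 16.9 and 21.1 and then 96.2 and 48.7, at least 2.76-fold higher (adjusted p = 0.00685). Apcs (serum amyloid P), Kng1 (kininogen) and Fabp1 (a fatty acid carrier of the hepatocyte cytosol) rose by 1.45, 1.36 and 1.11 log2.

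Among the enzymes, Gys2, the liver glycogen synthase, read 53.1 and 50.7 and then 322 and 135.3, a rise of 2.01 ± 0.34 log2 (adjusted p = 0.00624). Gsta3, a glutathione transferase, read 11.01 and 5.80, at the floor, and then 145 and 71.1, at least 4.09-fold higher (adjusted p = 0.00533). Pcx, the pyruvate carboxylase of glucose production, read 87.1 and 94.5 and then 227 and 162 (1.08 ± 0.16, adjusted p = 0.00278). Replicate 1 lies above replicate 2 at 12.5 dpc in each of these. Ppargc1a, a coactivator of glucose production genes, read 47.3 and 46.4 and then 87.7 and 103 (1.02 ± 0.16), with replicate 2 the higher array. Uroc1 (urocanase, of histidine breakdown) and Ugt2b34 (a glucuronosyltransferase) rose by 1.05 and 1.12 log2.

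Many of these calls rested on single arrays. Without 12.5 dpc replicate 1 the hepatocyte lists had 7 genes higher in place of 17, with 2 in the coagulation, complement and serpin list and 1 among apolipoproteins and lipid carriers, and without 11.5 dpc replicate 2 they had 8, with 2 and 1 in the same lists. Without 12.5 dpc replicate 2 the count was 22, and with the covariate 11. Of the 14 called hepatocyte genes that the naming rule picked, Ahsg, Apoh, F13b and Gsta3 remained called whichever of the 4 arrays was left out. Without 12.5 dpc replicate 1 the calls of Apcs (1.14), Apoc4 (1.60), C8b (0.97), Fabp1 (0.66), Kng1 (1.08), Uroc1 (0.76), Ugt2b34 (0.79) and Pcx (0.83) were lost, with adjusted p between 0.0182 and 0.299. Without 11.5 dpc replicate 2 those of Apoc4 (2.21), C8b (1.46), Fabp1 (1.01), Gys2 (1.97), Kng1 (1.20), Uroc1 (1.02) and Ugt2b34 (1.0) were lost, without 11.5 dpc replicate 1 those of Apcs (1.28), Fabp1 (1.22), Kng1 (1.51) and Ugt2b34 (1.23), and without 12.5 dpc replicate 2 that of Ppargc1a (0.90). A floor at the 40th percentile gave C8b 0.41, Gsta3 0.89, Apcs 0.81, Ppargc1a 0.79, Uroc1 0.79 and Apoc4 1.06 log2, none of them called, and averaging probe sets gave Uroc1 0.28 and Kng1 1.13 (adjusted p = 0.0553). With every gene tested, Fabp1, Kng1 and Ugt2b34 had adjusted p of 0.0606 to 0.0763, and with arrays centred on their medians Uroc1 stood at 0.98, Ppargc1a at 0.95 and Ugt2b34 at 1.05 (adjusted p = 0.0535), none of them called.

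The landmark liver genes that were high at 11.5 dpc showed small differences. Alb differed by 0.41 ± 0.19 log2 (adjusted p = 0.341). Afp (alpha-fetoprotein) read 5496 and 6108 and then 6083 and 5971 (0.06 ± 0.11). Ttr (transthyretin) read 3946 and 3459 and then 6347 and 4962 (0.60 ± 0.18, adjusted p = 0.0866). Afp did not separate the stages, whereas Alb and Ttr did without passing the test. Apoa1 read 2708 and 1863 and then 3737 and 3417 (0.67 ± 0.21, adjusted p = 0.121), and was called higher by 13.5 dpc (1.33, adjusted p = 0.00239). Fgb (fibrinogen beta) read 1174 and 1164 and then 1137 and 1077 (-0.08 ± 0.22). Cps1, the entry enzyme of the urea cycle, read 107 and 155 and then 251 and 175 (0.70 ± 0.30, adjusted p = 0.269). Hnf4a, a transcription factor of hepatocytes, read 400 and 438 and then 489 and 398 (0.08 ± 0.26), so its stages overlap. Hmga2, a chromatin protein of fetal progenitors, read 1808 and 1909 and then 1077 and 1144 (-0.74 ± 0.15, adjusted p = 0.0157), and was called lower by 13.5 dpc, at 547 and 571 (-1.73).

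A day later more hepatocyte genes were past the threshold. At 13.5 against 11.5 dpc, 53 of the 144 product and enzyme genes were higher and none lower, at a median of 0.77 log2, beside 4.17% of all genes. Of the 17 hepatocyte genes that rose by 12.5 dpc, 16 were among them; Ppargc1a was the other. At 12.5 dpc these lists also differed between the replicates, with a median of -0.28 log2 for replicate 2 minus replicate 1 against -0.04 over all genes tested. Measured alone against the 11.5 dpc mean, 35 of the 194 genes in all hepatocyte lists were at least 1 log2 higher on replicate 1 and 14 on replicate 2. In coagulation, complement and serpin genes, replicate 1 was above replicate 2 in 32 of 34. The heart transcripts were higher on replicate 2, and their part in this difference was not tested.

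**Figure D3:**
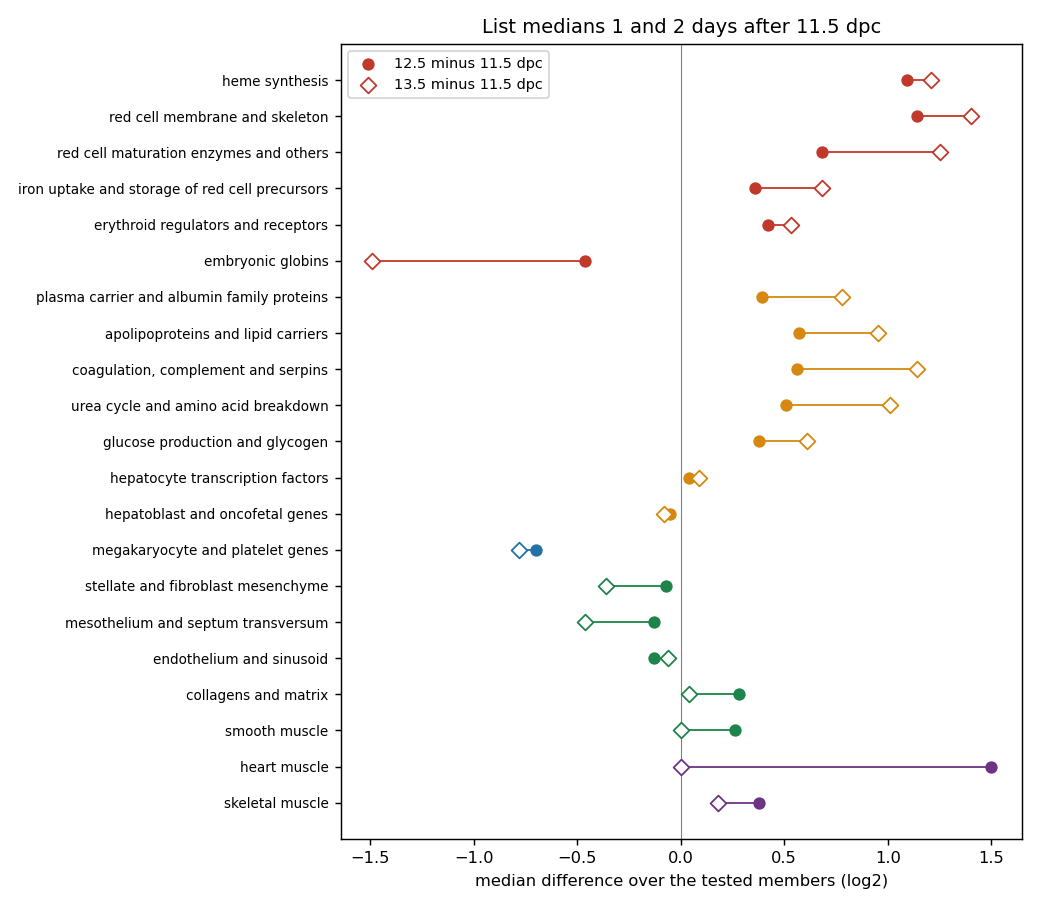
Median log2 difference over the tested members of each list at 12.5 minus 11.5 dpc (filled circles) and at 13.5 minus 11.5 dpc (open diamonds); both share the 11.5 dpc arrays. Coagulation genes stood at 0.56 and then 1.14, heme synthesis genes at 1.09 and then 1.21, stellate genes at -0.07 and then -0.36, and heart muscle genes at 1.50 and then 0.00.

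For the hepatocyte genes, 2 promoters are printed because HNF1 factors bind sites that hold the core GTTAAT, in capitals on either strand. They are the genes of the hepatocyte lists with the largest rise, 1 listed start and such a match, as 250 bases upstream of the gene in RefSeq (GRCm38.p6). C8b lies at chr4:104766067-104766316 and Fabp1 at chr6:71199629-71199878, both on the forward strand.
C8b: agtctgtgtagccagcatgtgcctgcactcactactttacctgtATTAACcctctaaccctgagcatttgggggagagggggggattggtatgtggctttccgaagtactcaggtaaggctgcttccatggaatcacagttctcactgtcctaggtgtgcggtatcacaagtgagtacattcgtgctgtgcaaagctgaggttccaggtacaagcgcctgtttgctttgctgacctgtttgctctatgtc
Fabp1: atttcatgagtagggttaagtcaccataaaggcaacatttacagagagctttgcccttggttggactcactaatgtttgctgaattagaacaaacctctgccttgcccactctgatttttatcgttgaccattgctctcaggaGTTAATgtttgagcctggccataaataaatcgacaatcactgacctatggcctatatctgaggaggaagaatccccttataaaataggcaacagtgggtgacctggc
The match begins 206 bases before the start in C8b and 107 in Fabp1. Such letters were in 32 of the 155 hepatocyte list genes with a promoter, 20.6%, in 5 of the 14 hepatocyte genes that rose and had one, and in 609 of all 11332, 5.37%. They were in 0 of the 68 erythroid promoters, which says only that these letters are not in these windows.

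Few stromal genes changed. Of the tested members of the stromal lists 6 rose, which is 3.64%, and none fell, at a median of -0.02 log2. Without 11.5 dpc replicate 1, 3 were called. Of the 6, Cnn1, Actg2 and Synpo2 are smooth muscle genes; without members of the muscle lists and the smooth muscle list 3 of 148 rose, 2.03%, beside 2.68% of all genes. None of 22 stellate and fibroblast genes was called by limma (median -0.07), none of 25 endothelial and sinusoidal genes (median -0.13) and none of 31 TGF-beta and BMP signalling genes (median -0.13). At an unadjusted p under 0.05 they held 10, 2 and 8 genes, beside 2294 of all 14125, so the stellate list was above that share. At an adjusted p under 0.05 with no minimum change 2 of the stellate genes passed.

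Pdgfra, the receptor that marks the mesenchyme, read 391 and 513 at 11.5 dpc and 327 and 335 at 12.5 dpc, a difference of -0.44 ± 0.16 log2 (adjusted p = 0.198). It was called lower by 13.5 dpc, at 166 and 203 (-1.29, adjusted p = 0.000609). Wt1, of mesothelium, read 108 and 109 and then 61.8 and 93.9 (-0.51 ± 0.27, adjusted p = 0.403), and was called lower by 13.5 dpc (-1.09). Col3a1, a fibrillar collagen, read 1712 and 1771 and then 2210 and 2059 (0.29 ± 0.18). Stab2, a scavenger receptor of sinusoids, read 107 and 109 and then 112 and 106 (0.01 ± 0.15). Mdk, a growth factor of fetal mesenchyme, read 1666 and 2149 and then 1258 and 1104 (-0.68 ± 0.15, adjusted p = 0.0241), below the threshold of 1 log2. Over all stromal lists 2 genes were higher and 12 lower at 13.5 against 11.5 dpc, at a median of -0.18, beside 4.17% higher and 1.06% lower of all genes.

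The stromal genes that rose were dim. Tbx18, a transcription factor of mesothelium and of the sinus region of the heart, read 17.5 and 28.2 and then 51.8 and 72.4 (1.21 ± 0.19, adjusted p = 0.00366), with 1 of the 11.5 dpc arrays at the floor. By 13.5 dpc it read 12.4 and -0.967. Wnt5a, a secreted Wnt ligand, read 27.4 and 41.5 and then 97.2 and 59.2 (1.17 ± 0.27, adjusted p = 0.0337), and 26.2 and 24.1 at 13.5 dpc. Both thus stood up on the 12.5 dpc arrays alone among these 3 stages, as the heart transcripts did, and the part of heart tissue in them was not tested. Lox, which cross-links collagen, read 54.3 and 77.9 and then 147 and 142 (1.15 ± 0.18, adjusted p = 0.00341). Synpo2 (44.8 and 30.3, then 108 and 141) and Actg2 (66.4 and 45.4, then 195 and 170), both of the smooth muscle contractile apparatus, rose by 1.74 and 1.73 log2 and were also higher at 13.5 dpc. Cnn1 (calponin) read 2.10 and 21.6, at the floor, and then 46.0 and 108, at least 2.84-fold higher. Calls were lost without 12.5 dpc replicate 2 for Tbx18 (0.97) and Cnn1 (0.89), without 12.5 dpc replicate 1 for Wnt5a (0.81), without 11.5 dpc replicate 1 for Lox (0.89), Wnt5a (0.87) and Cnn1 (1.50) and without 11.5 dpc replicate 2 for Cnn1 (1.50). Wnt5a was also not called with every gene tested (adjusted p = 0.0558) or with a floor at the 10th percentile (adjusted p = 0.106). A floor at the 40th percentile left Tbx18 at 0.20, Wnt5a at 0.47 and Cnn1 at 0.49, and averaging probe sets left Lox at 0.70, none of them called.

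**Figure D4:**
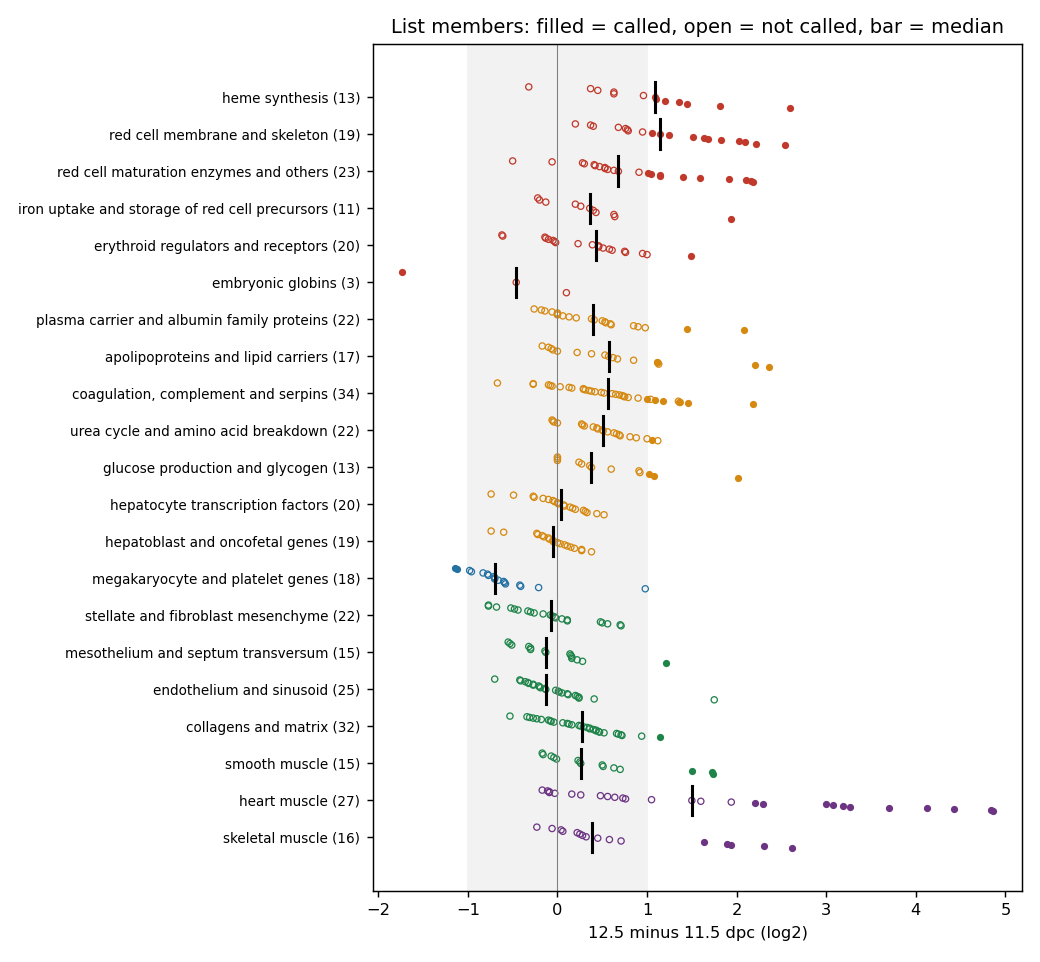
Log2 difference of 12.5 minus 11.5 dpc for every tested member of 21 lists, filled where called and open where not, with a bar at the list median and the number of tested members in brackets. The members of heme synthesis and of the red cell membrane spread from near 0 to above 2, those of the stellate list stay within 1 log2 of 0, and the heart list spreads to 4.86.

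Other blood lineages showed few calls, with platelet genes on the lower side. Of 18 megakaryocyte and platelet genes 2 fell and none rose, and 17 of the 18 differences were below 0, with a median of -0.70 log2, where 0.276% of all genes fell. Itgb3, the platelet integrin beta 3, read 309 and 323 at 11.5 dpc and 138 and 149 at 12.5 dpc and fell by 1.14 log2 (SE 0.15, adjusted p = 0.0011). Plek (pleckstrin, a signalling protein of platelets) read 790 and 884 and then 328 and 450 and fell by 1.12 log2 (SE 0.24, adjusted p = 0.0203), a call lost without 11.5 dpc replicate 1 (-1.20), 11.5 dpc replicate 2 (-1.04) or 12.5 dpc replicate 1 (-0.89). Pf4 (platelet factor 4) read 4047 and 4471 and then 2586 and 2668 (-0.70 ± 0.11, adjusted p = 0.00509), apart but under 1 log2. At 13.5 against 11.5 dpc, 4 of the 18 were lower, at a median of -0.78.

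Of 24 macrophage genes, at a median of 0.04 log2, 3 were at an unadjusted p under 0.05 by limma, beside 2294 of all 14125. By the rule for a rise 2 of the 24 rose, beside 2.68% of all genes. Both are scavenger receptor family genes of tissue macrophages. Cd5l read 139 and 70.8 and then 436 and 258 (1.76 ± 0.30, adjusted p = 0.0065), and 622 and 673 at 13.5 dpc. Marco read 51.0 and 33.0 and then 156 and 123 (1.75 ± 0.38, adjusted p = 0.0233). The general macrophage gene Csf1r read 1559 and 1140 and then 1392 and 1447 (0.09 ± 0.29), so its stages overlap. The neutrophil granule gene Camp read 54.0 and 29.98 and then 106 and 130 (1.54 ± 0.24), while Mpo, made earlier in the same lineage, read 774 and 944 and then 826 and 890 (0.01 ± 0.17). The calls of Cd5l (1.38) and Marco (1.58) were lost without 12.5 dpc replicate 1, and that of Marco also without 11.5 dpc replicate 2 (1.44) or 12.5 dpc replicate 2 (1.92). Limma made no call among 16 stem and progenitor regulators or 8 early B lymphoid genes, which held 4 and 1 genes at an unadjusted p under 0.05.

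Heart muscle genes showed the largest differences and the widest gap between replicates. Of 28 list members on the array 27 were tested (Sln was too dim), and 11 rose and none fell, at a median of 1.50 log2. The count was 16 without 12.5 dpc replicate 1, 8 without 12.5 dpc replicate 2 or 11.5 dpc replicate 1 and 6 without 11.5 dpc replicate 2. Measured alone against the 11.5 dpc mean, replicate 1 had a median of 0.44 log2 over the 27 and replicate 2 a median of 2.63, with 11 and 17 members at least 1 log2 higher. Replicate 2 was above replicate 1 in 26 of 27, Bmp10 being the exception. The median difference between the 12.5 dpc replicates was 1.29 log2 in this list, against a median absolute difference of 0.17 over all genes tested.

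The sarcomere gene Tnnt2 (cardiac troponin T), at the floor on both 11.5 dpc arrays, was at least 28.6-fold higher (adjusted p = 0.000329). Myh7, the slow myosin heavy chain, read 24.2 and -11.5, at the floor, and then 275 and 1046, at least 21.6-fold higher (adjusted p = 0.00106). Nppa (atrial natriuretic peptide) read 7.98 and 1.68, at the floor, and then 178 and 1050, at least 17.4-fold higher (adjusted p = 0.00224). In all 3, replicate 2 at 12.5 dpc read several times as high as replicate 1, and replicate 1 was itself far above 11.5 dpc. Actc1 (cardiac actin) read 94.1 and 107 and then 1958 and 4320, a rise of 4.86 ± 0.32 log2 (adjusted p = 4.6e-05). Tnnc1 (slow and cardiac troponin C) read 94.8 and 57.0 and then 608 and 830, a rise of 3.27 ± 0.28 log2 (adjusted p = 0.000158). The replicates of Tnnc1 lie closer together than those of the genes before it. The other 6 were the myosin light chains Myl2, Myl3 and Myl4, the thick filament protein Mybpc3 and the muscle proteins Csrp3 and Smpx, with differences of 2.20 to 3.70 log2.

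Several heart genes that were not called differed widely between the replicates. Myl7, the atrial light chain, read 102 and 97.8 at 11.5 dpc and 127 and 1149 at 12.5 dpc, so that it stood 0.35 log2 above 11.5 dpc on replicate 1 and 3.53 on replicate 2. Myh6, the fast cardiac myosin, read 59.3 and 73.8 and then 95.0 and 423, 0.52 log2 above on replicate 1 and 2.68 on replicate 2. Among the called genes the ventricular light chain Myl2 read 33.9 and 41.9 and then 310 and 778, 3.04 above on replicate 1 and 4.37 on replicate 2. Neither Myl7 (1.94 ± 0.75, adjusted p = 0.214) nor Myh6 (1.60 ± 0.57, adjusted p = 0.173) was called, although both were without replicate 1 (Myl7 3.53, adjusted p = 0.00156, and Myh6 2.68, adjusted p = 0.01). Tnni3, Pln and Ryr2, of the cardiac thin filament and calcium handling, likewise were called without replicate 1 (2.63, 1.67 and 1.29 log2). The heart transcription factors Nkx2-5 (0.16 ± 0.42), Tbx5 (0.26 ± 0.24) and Tbx20 (-0.03 ± 0.44) were not called. The remaining 8 members, Ttn, Hspb7, Myoz2, Nppb, Ankrd1, Atp2a2, Bmp10 and Corin, were not called, with differences between -0.17 and 0.76 log2. These values belong to the probe set taken for each gene. Other probe sets bright enough to be tested gave 1.91 for Ankrd1 and 1.32 for Hspb7. For Ttn they gave 1.61, 0.58 and -0.26, and for Atp2a2 1.03, 0.70 and -0.15. Those of Pln gave 2.16 and 1.88.

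**Figure D5:**
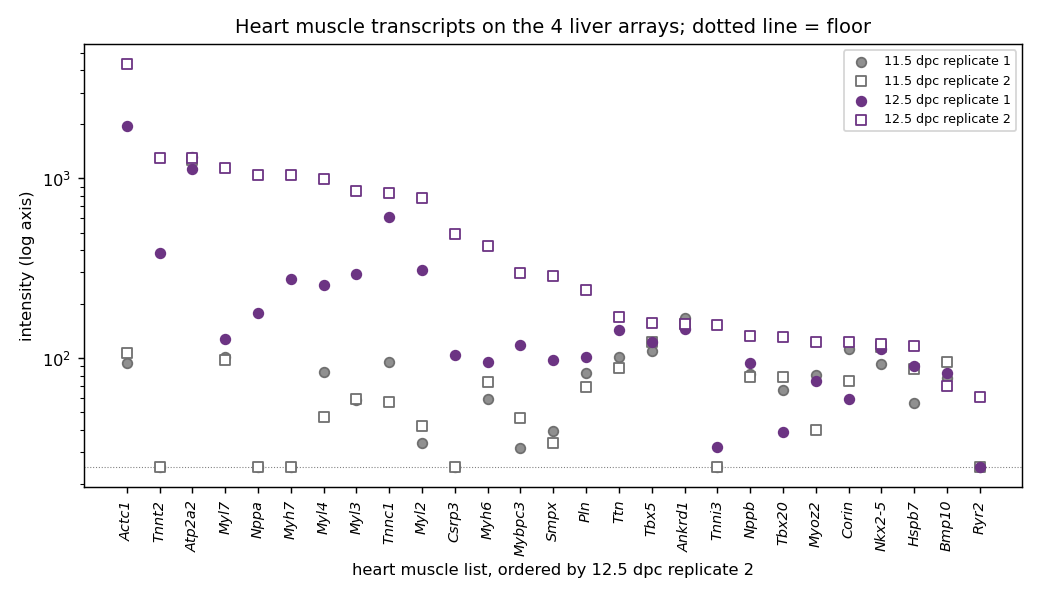
Intensity (log axis) of the 27 tested heart muscle genes on the 4 liver arrays, ordered by 12.5 dpc replicate 2, with 11.5 dpc in grey and 12.5 dpc in purple, replicate 1 filled and replicate 2 open; the dotted line is the floor of 24.8. Replicate 2 at 12.5 dpc is the top point for nearly all genes that separate, and Myl7 reads 127 on replicate 1 and 1149 on replicate 2.

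The heart transcripts were present at 10.5 dpc, low at 11.5, up at 12.5 and low again from 13.5 dpc. Tnnt2 read 2358 and 1160 at 10.5 dpc and 39.2 and 58.8 at 13.5 dpc. In 23 of the 27 members both 10.5 dpc arrays lay above both 11.5 dpc arrays, and in 15 they lay above both 12.5 dpc arrays. Replicate 1 of 10.5 dpc stood apart in RNA quality, with a 3' to 5' ratio for Gapdh of 2.816 beside 0.803 for replicate 2, and replicate 2 alone lay above both arrays in 24 and 16 members. Replicate 2 of 12.5 dpc was above all 6 arrays of 13.5 to 16.5 dpc in 23 members and replicate 1 in 19. Against 11.5 dpc, 2 members were higher at 13.5 dpc, Actc1 (2.40) and Tnnc1 (2.74), with a list median of 0.00. From 12.5 to 13.5 dpc 4 fell, Actc1, Myh7, Nppa and Tnnt2, at a list median of -1.46, where 9 of all genes tested, 0.0637%, fell. That set is unstable: without replicate 1 of 12.5 dpc 52 genes were called over this step, and without either 13.5 dpc array 0 were. In the test of the step to 12.5 dpc minus the step to 13.5 dpc, 55 of all genes, 0.389%, were called higher, and 9 of them were heart genes. These steps share the 12.5 dpc arrays with opposite sign, so a gene high at 12.5 dpc alone counts in both.

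The skeletal muscle list did not all follow the heart list. Of 25 members on the array 16 were tested, and 5 rose, with 3 called without 11.5 dpc replicate 2. Actn2 (alpha-actinin, also of heart) read 20.5 and 14.8, at the floor, and then 97.9 and 237, at least 6.13-fold higher, and Tnni1 (slow troponin I, also of the embryonic heart) read 72.0 and 73.9 and then 194 and 668 (2.31 ± 0.43, adjusted p = 0.0108). Mylpf, the fast skeletal light chain, instead read 62.0 and 47.3 and then 275 and 158 (1.94 ± 0.33, adjusted p = 0.00574), highest on replicate 1, and it stayed at 212 and 272 at 13.5 dpc. Its call was lost without 11.5 dpc replicate 2 (1.75) or 12.5 dpc replicate 1 (1.54). Myl1, a fast light chain, read 34.2 and 35.6 and then 141 and 119, and 85.5 and 129 at 13.5 dpc. Tnnt1 (slow troponin T) read 80.0 and 65.4 and then 185 and 271. The regulators of skeletal muscle Myog and Myod1 were too dim to be tested, and the skeletal actin gene Acta1 read 268 and 239 and then 287 and 350 (0.32 ± 0.35).

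One heart promoter is printed for the same reason as the erythroid ones, since GATA factors also act in heart muscle. Nppa has its 250 upstream bases on the forward strand at chr4:148000472-148000721 in RefSeq (GRCm38.p6), and capitals mark TGATAA.
Nppa: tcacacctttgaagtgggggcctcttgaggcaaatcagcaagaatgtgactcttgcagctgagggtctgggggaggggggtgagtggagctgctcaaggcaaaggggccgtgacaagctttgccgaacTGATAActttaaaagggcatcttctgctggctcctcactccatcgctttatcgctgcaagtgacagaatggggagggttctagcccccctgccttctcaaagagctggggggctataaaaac
The match begins 122 bases before the start. Of 39 muscle list genes with a promoter, 10 held a GATA site, 25.6%, beside 12.8% of all.

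Outside the muscle lists, most genes that rose had 12.5 dpc replicates within 1 log2, as did most of all genes tested. A wide gap between replicates also makes a call less likely. Of the 378 genes that rose, 16 had replicate 2 at least 1 log2 above replicate 1. These were Actc1, Csrp3, Mybpc3, Myh7, Myl2, Myl3, Myl4, Nppa, Smpx and Tnnt2 of the heart list, Actn2 and Tnni1 of the skeletal list, Cnn1 of the smooth muscle list, and Cryab, Nebl and Unc45b, which are in no list and serve as chaperones or filament proteins of striated muscle. In 7 genes replicate 1 was at least 1 log2 the higher: Apoc4, C1ra, Car3, Fn3k, Gsta3, Gys2 and Ogn. The other 355 had replicates within 1 log2. Replicate 1 was above replicate 2 in 299 of the 362 genes that rose outside the muscle lists, beside 7914 of all 14125. Over all genes tested, 266 had replicates that far apart at 11.5 dpc, and at 12.5 dpc 128 had replicate 2 and 139 replicate 1 that much higher. Of the 362 genes that rose outside the muscle lists, 210 were also called without either 12.5 dpc array in turn, and 329 were called higher at 13.5 against 11.5 dpc, compared with 4 of the 16 in the muscle lists. With the heart list median of each array added to the fit as a covariate, 141 of the 378 remained called. The median change of the 378 genes was 1.53 log2 in the main fit and 1.62 with the covariate, while the SE was 1.72 times as large at the median.

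The largest rises outside the muscle lists were in genes of no list. Tmcc2, a transmembrane coiled-coil protein, read 261 and 181 at 11.5 dpc and 3170 and 2316 at 12.5 dpc. Its rise of 3.64 ± 0.26 log2 (adjusted p = 5.85e-05) was shared by its other probe set, at 4.13. Tent5c, a poly(A) polymerase, read 137 and 75.0 and then 1516 and 1110, a rise of 3.68 ± 0.24 log2 (adjusted p = 4.35e-05), with 3.73 on its other probe set. In both, the stages lie far apart and the 13.5 dpc arrays lie at or above those of 12.5 dpc. Slc2a9, a urate transporter, read 148 and 59.4 and then 1384 and 1029 (3.67 ± 0.32), and Adcy9, an adenylyl cyclase, read 143 and 105 and then 1104 and 856 (2.99 ± 0.18). Msi2, an RNA-binding protein, read 237 and 99.3 and then 1615 and 1262 (3.22 ± 0.32). For these 3 the other probe sets lay between -0.48 and 0.63 log2, so the rise belongs to 1 probe set of each gene. With probe sets averaged, Msi2 stood at 0.67 and Adcy9 at 0.96 and neither was called. Col17a1, a transmembrane collagen, read 12.6 and 7.46, at the floor, and then 267 and 195, at least 9.18-fold higher. H2-D4, an MHC class I gene, read 29.4 and 38.6 and then 404 and 222 (3.15 ± 0.27). Golt1a, a Golgi transport protein, read -87.9 and -90.8 and then 470 and 336, at least 16.01-fold higher, but -7.82 and -44.3 at 14.5 dpc, so its level is not steady across the later stages. Of the 378 genes, 146 had another probe set bright enough to be tested. In 51 of these another probe set moved at least 1 log2 the same way, and in 69 none moved 0.5 log2 or more in that direction.

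The largest falls rested on probe sets that read below 0. Jag2, a Notch ligand, read 177 and 163 and then -63.1 and -101, at least 6.84-fold lower, while its other probe set stayed under the floor. Fndc10 read 101 and 203 and then -1330 and -791, at least 5.78-fold lower, and its other probe set gave -0.07. Phf13 (86.6 and 201, then -1215 and -809), Ccdc17 (74.6 and 153, then -461 and -409) and Rsph3a (354 and 382, then -98.8 and -4.23) had the same form. Such values cannot be read as levels. Of the 39 genes that fell, 12 had a 12.5 dpc reading below 0 and 7 had both, and 27 remained called when probe sets reading below 0 at either stage were left out. Serpinb6e read 185 and 195 and then -6.00 and 51.2 (-2.42 ± 0.28). Lgi1 read 229 and 279 and then 42.0 and 62.4 and fell by 2.30 log2, and Abitram read 199 and 219 and then 41.6 and 50.8 and fell by 2.18. Without single arrays the calls of Rsph3a were lost in all 4 cases (-3.94 to -3.83), those of Fndc10 without 11.5 dpc replicate 2 (-2.03) or 12.5 dpc replicate 1 (-2.53), and those of Ccdc17 without 11.5 dpc replicate 2 (-1.59) or either 12.5 dpc array (-2.10).

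Markers of other organs gave 2 rises and 2 falls among 53 tested members, which is 3.77% in each direction, beside 2.68% higher and 0.276% lower of all genes. Isl1, a transcription factor of pancreatic and heart progenitors, read 155 and 241 and then 57.1 and 88.4 and fell by 1.44 log2 (SE 0.30), reaching 28.7 and 38.6 at 13.5 dpc. Barx1, of stomach mesenchyme, read 196 and 240 and then 96.9 and 113 and fell by 1.06 log2 (SE 0.21). The neural Stmn2 (29.8 and 37.4, then 80.4 and 69.9) and the bone gene Ibsp (56.4 and 45.1, then 110 and 101) rose by 1.17 and 1.06 log2 at dim levels. All 4 calls were lost on leaving out single arrays: Isl1 (-1.12 and -1.12), Barx1 (-0.91 and -0.95) and Ibsp (0.90 and 1.0) without 11.5 dpc replicate 2 and without 12.5 dpc replicate 1, and Stmn2 (1.0) without 11.5 dpc replicate 1.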

How the data were processed

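RNA from pooled CD-1 embryonic livers was labelled as biotinylated cRNA for Affymetrix arrays of the mouse genome, as the labels' protocols and the series design state. The authors deposited 1 table of probe set intensities on a linear scale, some below 0; the summary method and the scaling between arrays are not given in the sources used here. Of 45101 probe sets, 34945 carried 1 gene symbol in the platform annotation, and each of 18193 genes took its probe set with the highest mean. Intensities were floored at the 20th percentile (24.8), logged to base 2, and kept where at least 2 liver arrays passed the median of all values (77.95). The 14 liver arrays, from the embryonic stages and from adult females, were fitted together in limma 3.58.1 (R 4.3.3). The fit had an intensity trend, 7 residual degrees of freedom and Benjamini-Hochberg adjustment over 14125 genes. The adult arrays thus entered both the filter and the spread behind each p-value. The fit was tested on simulated data with 200 altered genes. An adjusted p below 0.05, with no minimum change, was reached by 54.5% at a true size of 1 log2 and 90.5% at 2 log2. The share that would also pass the 1 log2 threshold was not computed.

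Members and lists were chosen with earlier results of these data known. Named genes were landmarks, the 8 largest rises and 8 largest falls outside the muscle lists, up to 3 called members of each list (or the one with the smallest adjusted p) and all heart list members; other list members were named after their values were seen. Same-numbered arrays deviated with r = -0.18 between the stages, and the main fit did not pair arrays by replicate number. This correlation alone cannot show whether same-numbered arrays were handled together, and the labels do not say. Other floors, filters, normalizations, probe set rules, sample sets and left-out arrays were tried, and 2 of these settings were chosen after seeing the data. Promoters are from RefSeq, GRCm38.p6.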

Additional observations from a re-analysis of the deposited data

Results flagged for a closer look

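These genes changed differently over the step from 11.5 to 12.5 dpc than over the step from 12.5 to 13.5 dpc, by limma's test of the difference between the steps at an adjusted p below 0.05 and at least 1 log2. The steps share the 12.5 dpc arrays, so a gene that is high at 12.5 dpc alone gives a large value. Among heart and skeletal muscle genes the difference was 8.86 log2 for Myh7, 8.73 for Tnnt2, 8.25 for Nppa, 7.32 for Actc1, 6.68 for both Myl2 and Myl3, 5.72 for Csrp3, 5.11 for Myl4, 4.43 for Tnni1, 4.37 for Actn2 and 3.81 for Tnnc1. In the stromal lists Wnt5a (2.74) and Tbx18 (2.51) also went up and then down. Genes that stepped up by 12.5 dpc and moved less by 13.5 dpc include the erythroid Fam210b (1.77) and Nfe2 (1.23), and outside the lists Golt1a (4.29), Slc2a9 (3.52), Tent5c (3.39), Tmcc2 (3.32), Msi2 (3.18), H2-D4 (3.09), Adcy9 (3.05) and Col17a1 (2.87). Jag2 (-2.77) and Lgi1 (-2.61) stepped down by 12.5 dpc, Jag2 to readings below 0. No explanation of these values was tested.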

How the results depend on the processing

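The 417 genes called between 11.5 and 12.5 dpc became 405 with a replicate block, 178 with the heart list median as a covariate and 754 with no minimum change, and lay between 279 and 442 when 1 array was left out, of which 17 to 52 were falls; a block with crossed replicate numbers, chosen after seeing the data since the deviations of same-numbered arrays correlated below 0, also gave 417. Leaving out probe sets below 0, also chosen after seeing the data, gave 396. At 13.5 against 11.5 dpc, 739 genes became 1651 with no minimum change. The 12 genes called from 12.5 to 13.5 dpc became 6 and 7 with floors at the 40th and 10th percentile, 1 with no filter, without the 10.5 dpc arrays or with the covariate, and 0 with median centring, with the groups compared alone or with the replicate block, and ranged from 0 to 52 with an array left out. The 57 genes whose steps differed became 32 with the floor at the 10th percentile, 26 with no filter or the groups compared alone, 33 with median centring, 100 without the 10.5 dpc arrays and 2 with the covariate, and ranged from 12 to 83 with an array left out. Of the lists, heart muscle (11 called) gave 4 with the covariate and 6 to 16 with an array left out, and red cell membrane (11) gave 2 with the covariate. Plasma carriers (2) gave 1 with the floor at the 40th percentile, the groups compared alone or the covariate and 1 to 2 with an array left out, and stellate genes (0) gave 2 with no minimum change. Hbb-b2 turned to -0.21 with probe sets averaged; its probe sets moved in opposite directions. With the covariate the median SE grew by 1.72 times. The cause of the other shifts was not tested. The replicate block changed the call of 1 named gene, Ugt2b34 (adjusted p = 0.0527). Values near the floor of 24.8 units limit what dim genes can show, and 2 arrays a stage limit the precision.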
